A study of Mus musculus with 3 samples.

Results

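Imprinted genes are transcribed from one parental copy and silenced on the other, and 44 of them were followed through the exit of mouse blastocysts from dormancy. The members form a list of 23 genes expressed from the paternal copy and 21 expressed from the maternal copy. They were found in the gene tables by symbol (23 genes) or, failing that, by Ensembl ID (18 genes). So 41 of the 44 had a row among the 31510 genes of the tables, and 3 had none (Peg10, Kcnq1ot1 and Zim3). The parental class of each gene is textbook knowledge of the mouse in any tissue. The tables hold no allele information, so that which copy gave the reads was not measured.

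RNA came from blastocysts in delayed implantation, when the embryo pauses in the uterus until estrogen returns. All mothers were CD-1 mice, 2 months old, that were ovariectomized on day 4 of pregnancy and given 2 mg of progesterone each on days 5 to 7. Dormant blastocysts were flushed on day 8 without estradiol (E2), reactivating blastocysts were taken 6 h after an E2 injection on day 7, and reactivated blastocysts 12 h after it. Each state was 1 library of rRNA-depleted total RNA from more than 3000 pooled blastocysts, read as 50 bp single-end SOLiD reads. The day and hour of collection changed together with the state, and their effects cannot be told apart. With 1 library per state no difference had a replicate check, and the intervals given are exact 95% intervals for counting error only. Reads carry no molecular identifiers and so are not separate molecules, and true errors are wider.

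Imprinting is set in the egg and sperm by DNA methylation at control regions or, for a few genes, by a histone mark (H3K27me3) that the egg lays down. It survives the genome-wide loss of methylation in the early embryo because proteins such as ZFP57, TRIM28 and DNMT1 protect the control regions. Many paternally expressed genes promote growth of the fetus and placenta, and many maternally expressed genes restrain it. Several genes of both classes act mainly in the trophoblast, the lineage whose first tissue, the trophectoderm, makes up the outer wall of the blastocyst.

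Depth was 9298675 exon reads in the dormant library, 10364607 in the reactivating library and 12941447 in the reactivated library. Levels are in RPKM, exon reads per kilobase of exon and per 1000000 reads of the library. Of the blastocyst's own markers all 6 for epiblast, all 7 for trophectoderm and all 5 for primitive endoderm reached 1 RPKM in a library. Of the uterine markers, 4 of 8 epithelial and 1 of 7 stromal genes did, and of 5 immune markers 3 did. Summed RPKM of the epithelial list was 106 in dormant, 101 in reactivating and 56.4 in reactivated embryos. Msx1 (36.28, 29.51 and 30.64 RPKM in that order), Lif and Wfdc2 made up most of it. Pgr, Esr1 and Krt5 of that list were at most 0.17 RPKM in any library. The sum of the stromal list was 4.01, 3.54 and 1.32 RPKM in the same order, and that of the immune list 18.6, 14.5 and 4.89 RPKM. The red blood cell markers stayed below 1 RPKM, with Hba-a1 and Hba-a2 at 0 reads in all 3 libraries.

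Of the 41 imprinted genes with a row, 23 reached 1 RPKM in at least 1 library, 11 paternally and 12 maternally expressed. The other 18 stayed below 1 RPKM in all 3 libraries. Over the whole tables, 12454 genes reached that level. The levels of the 23 varied widely within each library. H19 stood at the top with 703, 757 and 571 RPKM in dormant, reactivating and reactivated embryos. Ascl2, Nnat and Mest were lowest, at or near 1 RPKM.

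**Figure D1:**
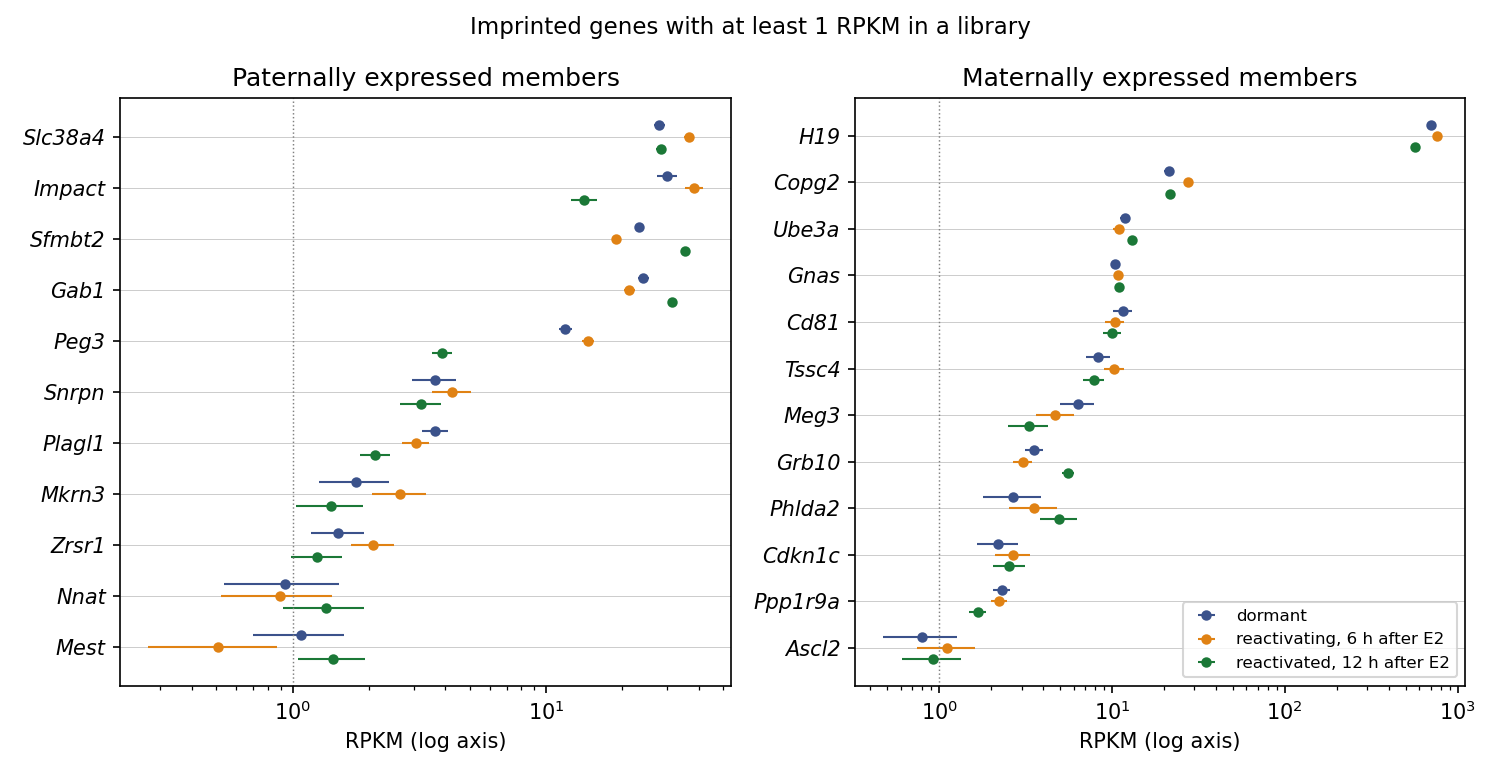
RPKM (log axis) of the 23 imprinted genes that reached 1 RPKM, paternally expressed on the left and maternally expressed on the right, 1 point per library with its exact 95% counting interval and a dotted line at 1 RPKM. H19 lies apart from all others between 571 and 757 RPKM, and Peg3 and Impact have their lowest point in the reactivated library.

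A gene was counted as higher or lower by size: a difference of at least 1 in log2(RPKM + 1), that is 2 times, where the higher library had 1 RPKM or more. The pseudocount of 1 understates the change of low genes. Between reactivating and dormant embryos, 0 of the 22 members that reached 1 RPKM in either library were higher and 0 were lower. Over all 12126 genes so measured, 2.68% were higher and 3.07% lower, so that 0 of 22 is close to the share of all genes. The median log2 difference was 0.14 for the imprinted genes, 0.22 for the paternal and 0.08 for the maternal class, and 0.06 for all genes.

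Between reactivated and dormant embryos 2 of 22 members fell, Peg3 and Impact, and 0 rose. Over all 12037 genes 7.66% were lower and 5.27% higher, so that 2 of 22 is close to the share of all genes. Among protein-coding genes alone the shares were 5.53% lower and 3.63% higher. The median log2 difference was -0.03 for the imprinted genes against -0.07 for all genes. Paternal genes had a median of -0.14 with a range of -1.41 to 0.58, and maternal genes a median of 0.02 with a range of -0.77 to 0.68. The same 2 genes were the members called lower between reactivated and reactivating embryos, among 23 members, and 0 were higher. Over all 12065 genes 7.63% were lower and 3.82% higher there. After scaling by the median ratio of the libraries, which moved the median of all genes up by 0.11 in log2, those shares were 5.87% and 5.19%. These comparisons share libraries and do not support one another.

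**Figure D2:**
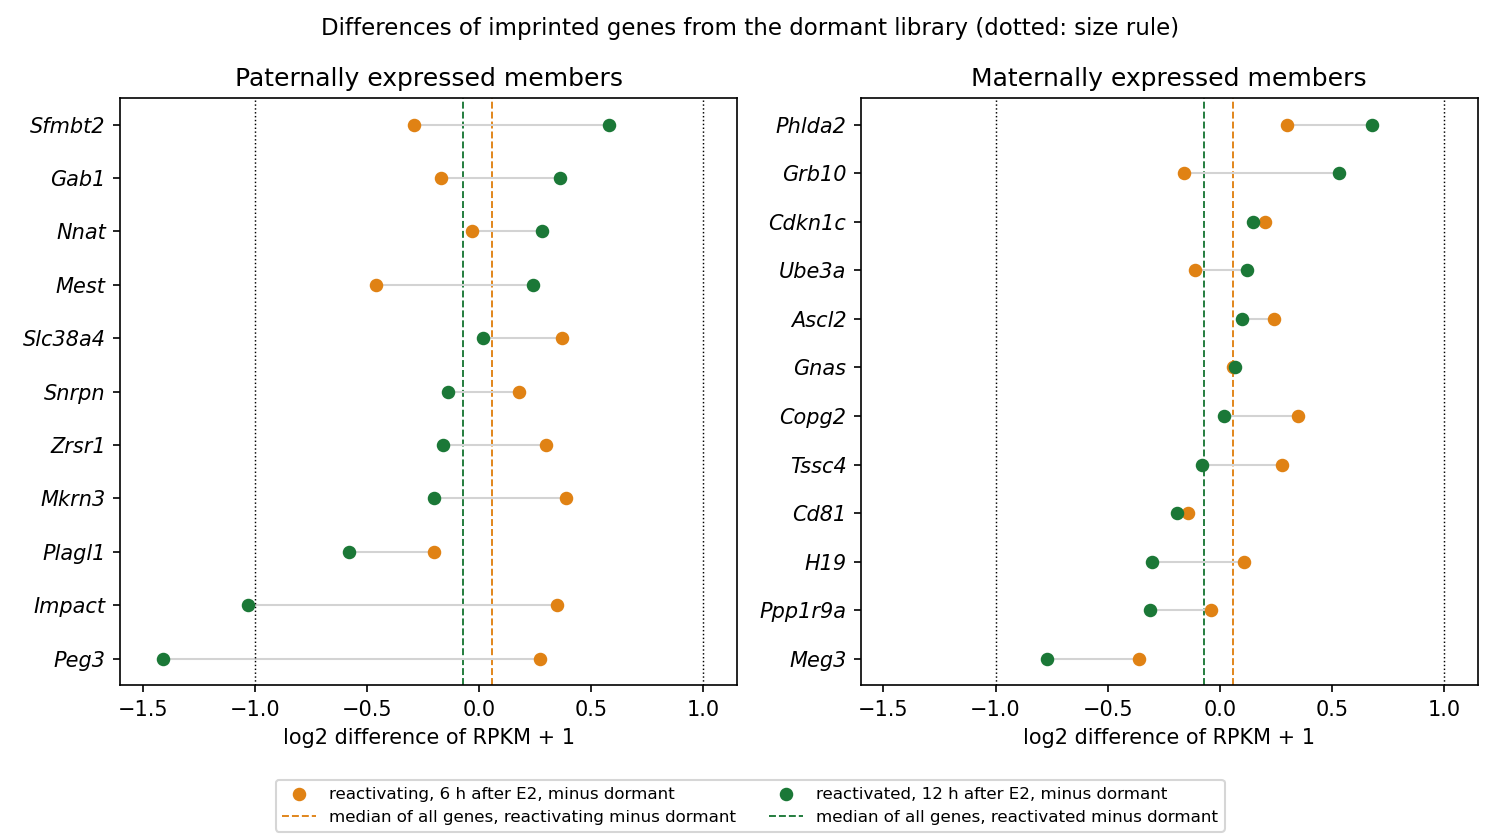
Difference in log2(RPKM + 1) from the dormant library for the 23 genes, orange for the reactivating and green for the reactivated library, with the median of all genes dashed and the size rule of 1 dotted. Peg3 and Impact cross the dotted line in the reactivated library alone, at -1.41 and -1.03.

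Peg3 and Impact are both paternally expressed, and both were highest at 6 h and lowest at 12 h after E2. Peg3 (ENSMUSG00000002265, chr7:6703892-6730431 on the minus strand of GRCm38) encodes a zinc finger protein and lends its name to an imprinted domain of zinc finger genes. Its level was 11.9, 14.6 and 3.88 RPKM in dormant, reactivating and reactivated embryos, from 1116, 1518 and 488 exon reads. The reactivated library thus stood apart from the other two, whose counting intervals did not overlap either (13.9 to 15.4 RPKM in reactivating and 11.2 to 12.7 RPKM in dormant embryos). The reactivated level was 0.325 times the dormant level (interval 0.292 to 0.362) and 0.266 times the reactivating level (interval 0.239 to 0.294). In the order of protein-coding genes of the nucleus, 6502 lay above Peg3 in the reactivated library and 3163 in the dormant library. Bulk RNA cannot tell fewer cells of a type apart from less RNA per cell, here and for every gene below.

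Impact encodes a protein that restrains GCN2, the kinase that slows translation when amino acids are short. Its level was 30.02, 38.4 and 14.2 RPKM in dormant, reactivating and reactivated embryos, from 429, 610 and 272 exon reads. The reactivated level was 0.472 times the dormant level (interval 0.404 to 0.550) and 0.369 times the reactivating level (interval 0.318 to 0.426). In log2(RPKM + 1) the reactivated library was lower than the dormant one by a difference of -1.03, just past the size rule. Under median ratio scaling that difference was -0.97, short of the rule. The uterine epithelial, stromal and immune sums given above were also lowest in the reactivated library, though not every marker in them was. Lif (35.75, 33.96 and 9.55 RPKM in time order) and Wfdc2 (30.11, 32.67 and 13.38 RPKM) carried most of the epithelial drop. Laptm5 (13.74, 11.52 and 4.11 RPKM) carried most of the immune drop. Ltf (0.28, 0.91 and 0.94 RPKM) and Ptprc (0.09, 0.27 and 0.20 RPKM), among others, were lowest in dormant embryos. The part of uterine and immune RNA in the change of Peg3 and Impact was not tested.

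Reads in introns, which can come from unspliced RNA but whose source was not measured, gave a further view of both genes. Peg3 had 125, 98 and 108 intron reads in dormant, reactivating and reactivated embryos, or 8.85, 6.25 and 5.69 per 1000000 reads of the library. Its intron reads in the reactivated library were 0.643 times those of the dormant library after scaling to library size (interval 0.492 to 0.838), and 0.911 times those of the reactivating library (interval 0.686 to 1.21). Against the reactivating library the intervals for exon and intron reads were thus far apart. The exon model of Peg3 covers 49.7% of its exon length in the GENCODE M21 annotation. Exons outside the model are not in its RPKM and their reads are not told apart from intron reads here. The exon share of the reads on the Peg3 strand was 89.9%, 93.9% and 81.9% in time order, while the median over 8872 genes was 72.3%, 74.0% and 74.0%.

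Impact had 238, 255 and 195 intron reads in time order. After scaling to library size the reactivated library had 0.609 times the intron reads of the dormant library (interval 0.502 to 0.740) and 0.632 times those of the reactivating library (interval 0.522 to 0.765). Both genes thus had fewer intron reads in the reactivated than in the dormant library. Against the reactivating library the interval lies below 1 for Impact and includes 1 for Peg3. Over all genes intron reads numbered 3554921, 3479754 and 3982790 in time order, beside library totals of 14118723, 15687239 and 18982195. Scaled intron reads of all genes together thus also fell from each library to the next. The intron ratios here and below were not set against that fall. The exon share of Impact was 64.3%, 70.5% and 58.2%. The exon model of Impact in the tables is 1012 bases long, 19.7% of the exon length in M21, so that reads in parts of exons missing from the model are not in its RPKM.

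**Figure D3:**
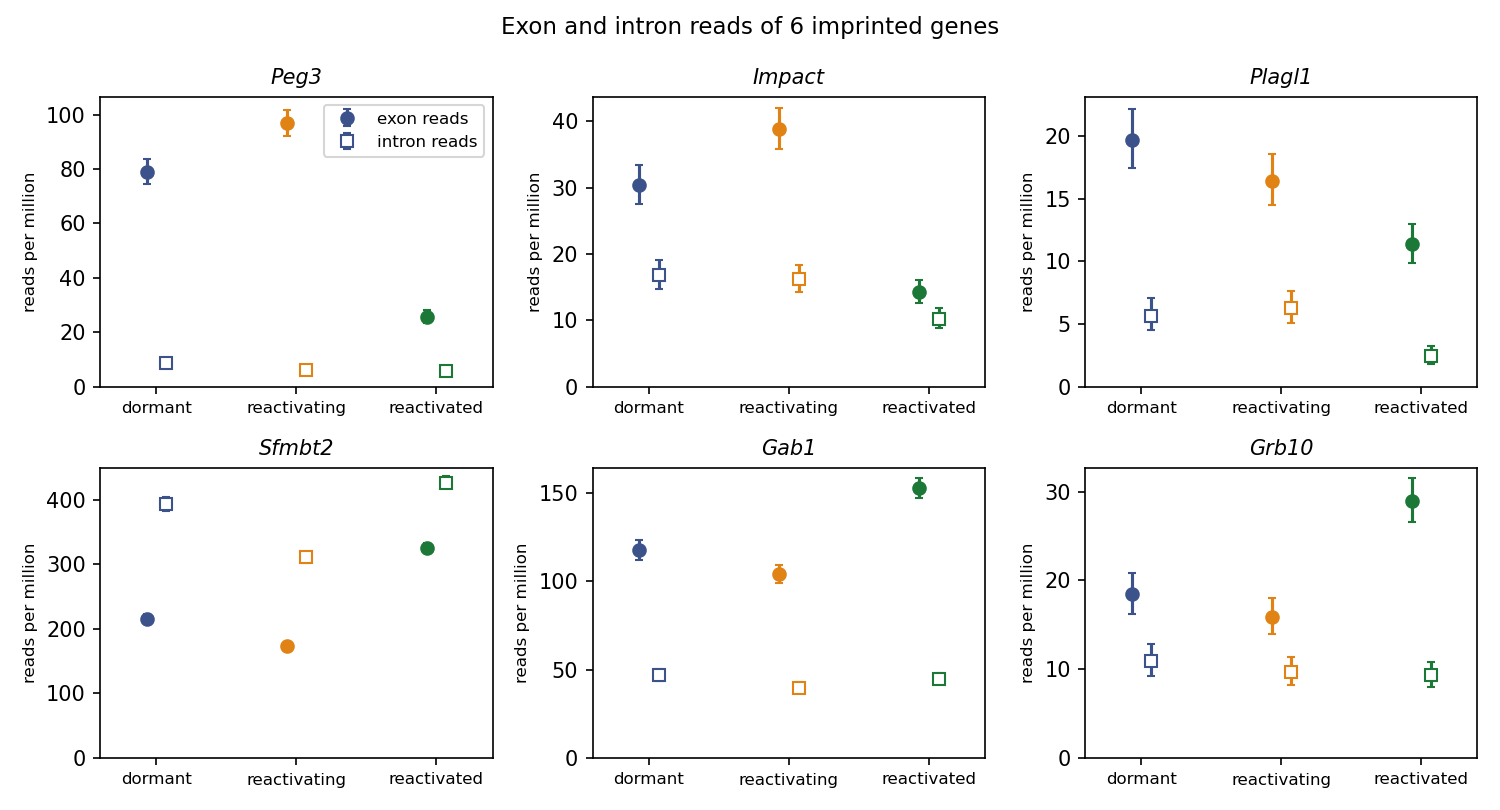
Reads per 1000000 reads of the library in exons (filled circles) and introns (open squares) of 6 imprinted genes in the 3 libraries, with exact 95% counting intervals and a linear axis from 0 for each gene. Exon reads of Peg3 drop in the reactivated library to 25.7 against 79.0 in the dormant library, with intron reads at 5.69 against 8.85, and Sfmbt2 is the gene here with more intron than exon reads in every library.

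The start region of Peg3 is shared with Usp29, which runs in the opposite direction, and the RefSeq promoter windows of both genes overlap by 263 bases (250 bases before to 50 bases after each start, GRCm38.p6). The methylated control region of the domain lies there, so the Peg3 window is printed with its 13 CpG sites, the sites that can carry DNA methylation, in capitals. The median window of all genes holds 7 CpG sites. The window is chr7:6730370-6730669, minus strand.
Peg3: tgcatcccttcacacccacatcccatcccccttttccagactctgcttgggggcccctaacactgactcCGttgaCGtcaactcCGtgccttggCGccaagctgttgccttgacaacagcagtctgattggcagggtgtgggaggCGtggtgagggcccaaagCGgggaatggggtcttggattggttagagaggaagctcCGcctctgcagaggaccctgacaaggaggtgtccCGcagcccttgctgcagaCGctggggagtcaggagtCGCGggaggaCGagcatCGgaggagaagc

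Despite the common start region the levels of the neighbours differed widely. Usp29, which encodes a ubiquitin protease, had 18, 5 and 10 exon reads in dormant, reactivating and reactivated embryos, or 0.17, 0.04 and 0.07 RPKM. Peg3 was thus above it in every library, per exon length. Usp29 had 58, 82 and 114 intron reads in time order, and 64, 69 and 111 reads on the opposite strand. Opposite reads were 45.7%, 44.2% and 47.2% of its reads, against 2.11%, 2.98% and 3.74% for the median gene. Its intron reads thus did not clearly favour its own strand and cannot be taken as Usp29 transcripts. Zim1, a maternally expressed zinc finger gene of the same domain, had 3, 3 and 2 exon reads.

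Sfmbt2, Gab1 and Slc38a4 are paternally expressed genes that the egg silences through H3K27me3 rather than DNA methylation. They were among the 5 paternal genes with the most RPKM, and together held 57.4%, 53.1% and 75.6% of the summed RPKM of the paternal class in time order. Their own sum was 75.6 RPKM in dormant, 76.8 in reactivating and 95.1 in reactivated embryos, while the class sum was 132, 145 and 126 RPKM. None of the 3 passed the size rule in any comparison.

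Sfmbt2 encodes a polycomb protein needed for the placenta in the mouse, and one of its introns carries a large cluster of miRNAs. Its level was 23.4, 18.9 and 35.4 RPKM in dormant, reactivating and reactivated embryos. The reactivated library was the highest, 1.51 times the dormant level (interval 1.45 to 1.58) and 1.87 times the reactivating level (interval 1.79 to 1.96), both short of 2 times. Its log2 difference between reactivated and reactivating embryos was 0.87, and 0.997 under median ratio scaling, barely short of the rule. Gab1, a docking protein for receptor tyrosine kinases, followed the same order with 24.2, 21.3 and 31.3 RPKM. Slc38a4, an amino acid transporter, did not. It had 28.0, 36.6 and 28.4 RPKM, with the high point at 6 h.

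Introns took a large part of the Sfmbt2 reads. It had 5551, 4872 and 8099 intron reads in time order beside 3032, 2720 and 6172 exon reads, so that exons held 35.3%, 35.8% and 43.2%. Between reactivated and dormant embryos scaled intron reads were 1.09 times as many (interval 1.05 to 1.12), less than the 1.51 times of the exons. Gab1 had an exon share of 71.5%, 72.3% and 77.2%, near the median gene. Its intron reads were 0.958 times as many in reactivated as in dormant embryos (interval 0.865 to 1.06).

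The miRNA genes inside Sfmbt2 have rows of their own. There were 46 such rows, with 153, 250 and 479 reads in all in dormant, reactivating and reactivated embryos, and 9 of them reached 20 reads in a library. Mir297c had 0, 19 and 47 reads, and Mir669f 2, 8 and 31 reads. Gm22072 of the same cluster had 34, 36 and 43 reads. The rows of the cluster are near-identical copies, so that the split of reads among them is uncertain. Relative to the intron reads of the gene the cluster made up 2.76%, 5.13% and 5.91% in time order. Rows of precursor miRNAs moved widely in these libraries: of 116 miRNA rows measured, 38.8% were higher and 25.9% lower in reactivated than in dormant embryos by the size rule.

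The other paternal genes above 1 RPKM were lower in level. Plagl1, a zinc finger factor that halts the cell cycle, had 3.66, 3.06 and 2.11 RPKM from 278, 258 and 216 exon reads in time order. Its reactivated level was 0.577 times the dormant level (interval 0.482 to 0.693), a log2(RPKM + 1) difference of -0.58 that did not pass the size rule. Its intron reads numbered 80, 98 and 46, and, scaled to library size, the reactivated library had 0.428 times those of the dormant library (interval 0.291 to 0.622). Exon and intron reads of Plagl1 were thus both lowest at 12 h. Its exon model covers 68.8% of the M21 exon length, and reads in exons outside it are not told apart from intron reads.

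Snrpn encodes a core protein of the spliceosome and anchors the Prader-Willi domain on chromosome 7. It had 3.64, 4.24 and 3.20 RPKM in time order, and the interval of the dormant library overlapped those of both others. Mkrn3, a RING finger gene of the same domain known as a brake on puberty, had 1.78, 2.65 and 1.42 RPKM from 41, 68 and 44 reads. Zrsr1, a splicing factor gene that arose as a retrotransposed copy inside an intron of Commd1, had 1.51, 2.08 and 1.25 RPKM, and shares sequence with Zrsr2, so that its count is uncertain. All 3 had their highest value at 6 h and none passed the size rule.

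The remaining members of that domain were close to silent. Ndn and Magel2 encode MAGE family proteins, and Peg12 a Wnt pathway protein of the FRAT family. Ndn had 5, 13 and 6 exon reads. Magel2 had 0, 0 and 6 reads, where 0 reads allow up to 0.0981 RPKM in the reactivating and 0.109 RPKM in the dormant library. Peg12 had 1, 0 and 1 reads. Ube3a, the maternally expressed ubiquitin ligase at the other side of the domain, was far higher with 11.9, 10.9 and 13.01 RPKM. It is imprinted in neurons and biallelic in most other tissues.

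The Snrpn region also holds Snord64, a small nucleolar RNA gene at chr7:59978808-59978874 on the minus strand within the M21 gene that bears the Snrpn ID. Its row was singled out after its values were seen. It had 15, 82 and 323 reads, or 15.9, 78.0 and 254 RPKM, in dormant, reactivating and reactivated embryos. Each later library was thus above the earlier one, and the reactivated level was 16.0 times the dormant level (interval 9.57 to 29.0) and 3.26 times the reactivating level (interval 2.55 to 4.20). Of 297 snoRNA rows measured between reactivated and dormant embryos, 15.5% were higher and 36.0% lower by the size rule. Snrpn itself did not follow, with 99, 128 and 117 exon reads and 53, 72 and 74 intron reads.

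Mest and Nnat lay near 1 RPKM. Mest, an alpha/beta hydrolase gene, had 25, 13 and 45 exon reads in time order, or 1.08, 0.51 and 1.45 RPKM. Its reactivated level was 2.84 times the reactivating level (interval 1.52 to 5.78), but the difference in log2(RPKM + 1) was 0.70. Nnat, which encodes a small membrane proteolipid and sits inside an intron of Blcap, had 16, 17 and 31 reads, or 0.93, 0.89 and 1.35 RPKM, with intervals that overlap throughout. Zdbf2, a zinc finger gene, had 111, 86 and 165 reads over a long exon model, or 0.62, 0.43 and 0.69 RPKM.

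The other paternal genes gave a handful of exon reads each. Dlk1, a Notch ligand relative and growth regulator, had 0, 1 and 3 exon reads in time order. The genes Rtl1, Sgce and Nap1l5 had between 0 and 7 exon reads in each library, and Rtl1 is listed in 2 equal rows. Sgce also had 24, 34 and 53 intron reads and 18, 16 and 29 opposite reads in time order. Its exon model covers 17.7% of the M21 exon length, and reads in exons outside it are not told apart from intron reads. Airn, the noncoding RNA that silences Igf2r and, in the placenta, Slc22a2 and Slc22a3 on the paternal copy, had 7, 6 and 6 exon reads. Its row covers 2160 bases and no intron, while the gene spans 118826 bases in M21. Reads in the rest of the locus are not counted, so the level of Airn RNA is not known from this row. With 10 of 21 paternal genes below 1 RPKM, 5 genes carried most of the class.

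H19 dominated the maternal class. It is a noncoding RNA that restrains growth and is made from the maternal copy beside the paternally expressed growth factor gene Igf2. Its level of 703, 757 and 571 RPKM in dormant, reactivating and reactivated embryos rested on 22403, 26808 and 24450 exon reads. It made up 89.5%, 89.5% and 87.3% of the summed RPKM of the 20 maternal genes. In the dormant, reactivating and reactivated libraries 7, 8 and 9 nuclear protein-coding genes lay above it. The reactivated level was 0.812 times the dormant level (interval 0.797 to 0.827), a difference larger than counting error but far short of 2 times. H19 RNA was almost wholly spliced, with 20, 18 and 17 intron reads in time order and an exon share of 99.9% in each library, and 1459, 1523 and 1810 reads crossed its exon junctions. Igf2 was much lower than H19 at 18.98, 18.95 and 17.82 RPKM and hardly differed between libraries.

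H19 is also the host of miR-675, a miRNA cut from its RNA that lowers growth in the mouse placenta. Both mature forms are printed from RefSeq (GRCm38.p6) with the seed, bases 2 to 8, in capitals, because the row of their precursor is part of the H19 signal. The seeds of the 2 forms differ.
miR-675-5p: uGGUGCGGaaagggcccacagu
miR-675-3p: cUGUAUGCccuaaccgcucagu

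The Mir675 row (chr7:142577064-142577147, minus strand) had 159, 361 and 234 reads, or 134, 274 and 147 RPKM, in dormant, reactivating and reactivated embryos. The reactivating library was the high one, at 2.04 times the dormant level (interval 1.69 to 2.48), and passed the size rule with a log2 difference of 1.03. Of 114 miRNA rows measured in that comparison, 43.0% were higher and 28.9% lower. H19 was 1.08 times as high in the same comparison. Per length the row lay below its host in every library, and since it overlaps an exon of H19, reads of the miRNA precursor and of H19 cannot be told apart.

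Growth-restraining genes of the Kcnq1ot1 domain on distal chromosome 7 were present at low levels. Cdkn1c, the cyclin-dependent kinase inhibitor p57, had 2.20, 2.67 and 2.55 RPKM in time order, with overlapping intervals. Phlda2, which limits placental growth, had 2.69, 3.55 and 4.93 RPKM from 28, 41 and 69 reads. It had the highest log2 difference of any member between reactivated and dormant embryos, 0.68, or 1.83 times (interval 1.17 to 2.95), which did not pass the size rule. Ascl2, a transcription factor that trophoblast of the ectoplacental cone needs, had 18, 28 and 28 reads, or 0.79, 1.11 and 0.92 RPKM. Slc22a18, a transporter gene, had 8, 22 and 9 reads. Of the 4 genes Phlda2 alone was highest in the reactivated library.

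Cd81, a tetraspanin, and Tssc4 lie in the same domain and are imprinted mainly in the placenta. Cd81 had 11.55, 10.4 and 10.01 RPKM and Tssc4 had 8.33, 10.3 and 7.82 RPKM in time order, both more than Cdkn1c in each library. Th, tyrosine hydroxylase, had 5, 6 and 4 exon reads, beside 10, 13 and 37 intron reads and 17, 72 and 24 opposite reads. Kcnq1, a potassium channel gene, had 10, 4 and 12 exon reads. So 3 of the 9 genes listed for the domain, Th, Kcnq1 and Slc22a18, had a row but stayed below 1 RPKM.

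Kcnq1 stood out by reads on the strand opposite to it. There were 1990, 1465 and 1818 opposite reads in dormant, reactivating and reactivated embryos, against 10, 4 and 12 in its exons and 133, 234 and 262 in its introns. Opposite reads were 93.3%, 86.0% and 86.9% of its reads, and 10, 21 and 19 genes of the whole tables had more such reads. Scaled to library size, the opposite reads were 0.663 times as many in reactivating as in dormant embryos (interval 0.619 to 0.709) and 0.680 times as many in reactivated as in dormant embryos (interval 0.637 to 0.724). The reactivated and reactivating libraries differed little, at 1.03 times (interval 0.957 to 1.10).

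Kcnq1ot1, the noncoding RNA that silences the domain on the paternal copy, is transcribed within Kcnq1 in the opposite direction. M21 places it at chr7:143203458-143296549 on the minus strand, inside Kcnq1 at chr7:143106362-143427042 on the plus strand. It has no row, so that opposite reads of Kcnq1 cannot be assigned to it from the tables. Its RefSeq start window, chr7:143296498-143296797 on the minus strand, lies in the methylated control region of the domain. It is printed with its 9 CpG sites in capitals because the opposite reads of Kcnq1 outnumber its own exon and intron reads in every library.
Kcnq1ot1: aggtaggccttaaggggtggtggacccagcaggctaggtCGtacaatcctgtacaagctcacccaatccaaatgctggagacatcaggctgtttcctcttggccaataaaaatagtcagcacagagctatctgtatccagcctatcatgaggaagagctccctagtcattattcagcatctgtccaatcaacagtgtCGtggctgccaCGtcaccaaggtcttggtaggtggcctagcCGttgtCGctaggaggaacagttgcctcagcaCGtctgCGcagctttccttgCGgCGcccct

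Few other imprinted genes had so much on the opposite strand. The median gene with at least 100 reads in every library had 2.11%, 2.98% and 3.74% of its reads opposite in time order. More than 50% of reads were opposite for 477, 481 and 471 of 10192 such genes, or 4.68%, 4.72% and 4.62%. Among the members 3 had mostly opposite reads in every library, Kcnq1, Rtl1 and, on very few reads, Magel2. Rtl1 and Magel2 did not reach 100 reads in every library and so are not among the 10192 genes. Rtl1, a gene domesticated from a retrotransposon, had 47, 43 and 79 opposite reads beside 2, 5 and 6 exon reads. From the maternal copy its opposite strand is known to make an antisense RNA that carries miRNAs against Rtl1, which has no value of its own here.

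**Figure D4:**
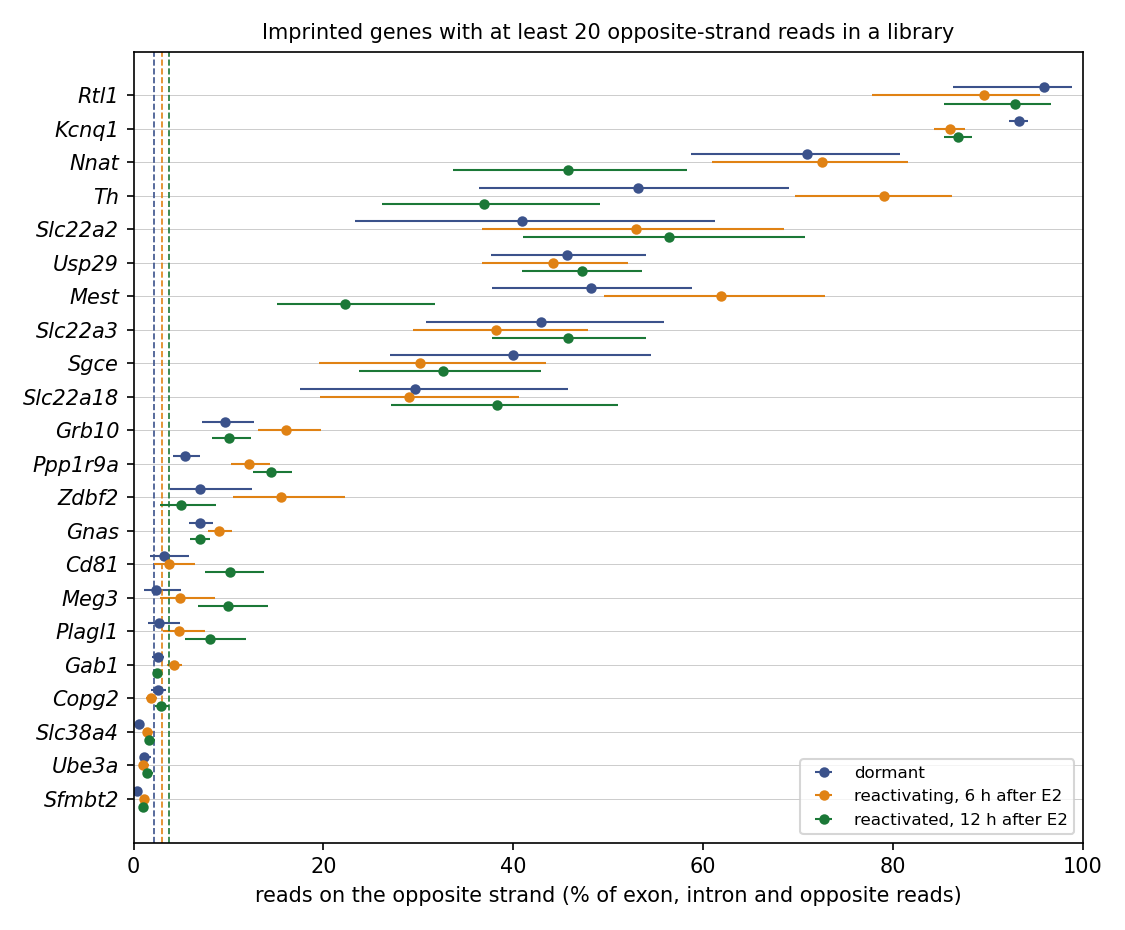
Share of reads on the opposite strand for the 22 imprinted genes with at least 20 such reads in a library, with Wilson 95% intervals for each library and the median gene as dashed lines. Rtl1 and Kcnq1 lie between 86.0% and 95.9%, while Sfmbt2, Ube3a and Slc38a4 lie below 2%.

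For a few members an overlapping neighbour on the other strand is known. Nnat had 44, 50 and 27 opposite reads, or 71.0%, 72.5% and 45.8%, and lies inside Blcap, which runs the other way. Mest had 40, 39 and 21 opposite reads, or 48.2%, 61.9% and 22.3%, and the 3' end of Copg2 overlaps it. For both genes the share was lowest in the reactivated library, where their own exon reads were most. Copg2, a coat protein gene counted here as maternally expressed, had 21.3, 27.5 and 21.5 RPKM, the second highest level of its class.

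Mest holds 2 copies of TGCCGC, the letters that ZFP57 binds when they are methylated, in a start window at chr6:30737800-30738099 on the plus strand. It is printed with these letters, as read on either strand, in capitals.
Mest: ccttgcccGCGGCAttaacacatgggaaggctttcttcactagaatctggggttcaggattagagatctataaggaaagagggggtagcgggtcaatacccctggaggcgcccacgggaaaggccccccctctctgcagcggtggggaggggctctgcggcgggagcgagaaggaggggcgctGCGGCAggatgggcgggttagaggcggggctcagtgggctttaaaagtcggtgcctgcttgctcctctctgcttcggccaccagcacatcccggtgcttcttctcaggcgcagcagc

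The motif was searched on both strands of all RefSeq windows of 300 bases, 1 or more per gene. Of the 44 members 35 had a window, and 11 of them held the motif, 6 of 19 paternal and 5 of 16 maternal genes. Of all 27025 genes with a window 13.1% held it. The motif contains a CpG, and most member windows held more CpG sites than the 7 of the median window. The part of CpG content in these shares was not tested. The 11 included Mest, Zdbf2, Nap1l5, Plagl1, Grb10 and Meg3, and neither Peg3 nor Kcnq1ot1. The motif thus occurred in genes with and without transcripts here, such as Plagl1 at 3.66 RPKM and Nap1l5 with 1 exon read in dormant embryos. A match of letters is not a bound site. Parts of the control regions outside these windows of 300 bases were not searched, for Peg3 and Kcnq1ot1 as for the others.

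Grb10 encodes an adaptor that dampens insulin and IGF receptor signals, and is maternally expressed outside the brain. It had 3.54, 3.05 and 5.57 RPKM from 260, 249 and 550 reads in time order, the reactivated library lying above the other two. The reactivated level was 1.57 times the dormant level (interval 1.36 to 1.83) and 1.83 times the reactivating level (interval 1.57 to 2.13). Intron reads of Grb10 did not rise alongside, with 154, 152 and 177, and were 0.855 times as many in reactivated as in dormant embryos after scaling (interval 0.685 to 1.07). The exon share of Grb10 was accordingly 62.8%, 62.1% and 75.7%. Its exon model covers 57.3% of the M21 exon length, so that reads in exons outside it may count as intron reads.

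Gnas had the flattest course of the higher genes. The locus makes the stimulatory G protein subunit and several other products of opposite parental origin, which its single row does not separate. It had 10.4, 10.85 and 10.9 RPKM in time order, and its counting intervals overlap throughout.

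Meg3, a noncoding RNA made from the maternal copy of the Dlk1 domain on chromosome 12, had 6.35, 4.71 and 3.30 RPKM from 80, 66 and 56 exon reads in time order. The reactivated level was 0.520 times the dormant level (interval 0.363 to 0.742), and the log2(RPKM + 1) difference of -0.77, the lowest among maternal genes, did not pass the size rule. The exon model of Meg3 in the tables has 893 bases, 4.94% of the exon length in M21. Its 170, 148 and 171 intron reads outnumbered the exon reads in every library, and reads in exons outside the model are not told apart from them. Scaled intron reads were 0.748 times as many in reactivated as in dormant embryos (interval 0.602 to 0.931). The sum of the immune list was also lowest in the reactivated library, but most of it was Laptm5 (13.74, 11.52 and 4.11 RPKM in time order). Ptprc of the same list was lowest in the dormant library (0.09, 0.27 and 0.20 RPKM). The part of immune RNA in the Meg3 reads was not tested.

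Of the 7 members imprinted mainly in the placenta, Cd81, Tssc4 and Ppp1r9a reached 1 RPKM and 4 did not, and of all 31510 genes 19056 did not. Ppp1r9a, which encodes the actin-binding protein neurabin, had 2.30, 2.22 and 1.67 RPKM in time order with more intron than exon reads in each library (655, 523 and 658 against 324, 348 and 317). Slc22a2 and Slc22a3, cation transporter genes of the Airn domain, had 1 to 4 exon reads in each library. Slc22a3 had 31, 60 and 74 intron reads and 24, 39 and 65 opposite reads. Dcn, the matrix proteoglycan decorin of connective tissue, had 13, 11 and 5 exon reads, and the stromal sum beside it was 4.01, 3.54 and 1.32 RPKM. Its intron reads went the other way, with 6, 6 and 30 in time order. Scaled to library size they were 3.72 times as many in reactivated as in dormant embryos (interval 1.52 to 10.9). The part of stromal RNA in the Dcn reads was not tested. Asb4, in the Peg10 domain, had 1, 2 and 3 reads.

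As trophoblast of the later placenta is where several of these genes act, its markers were counted too. Of 5 markers 2 reached 1 RPKM, and the sum was 1.91, 2.35 and 4.16 RPKM in dormant, reactivating and reactivated embryos. Prl2c2 had 0 reads in all 3 libraries. The sum of the trophectoderm list was 1259, 1249 and 996 RPKM in the same order, most of it Krt18 with 807.1, 833.5 and 624.4 RPKM. The genes of that list did not move together. Between reactivated and dormant embryos Elf5 was higher (2.70 times), Cdx2 and Gata3 were lower (0.309 and 0.440 times), and the others did not pass the size rule.

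A further 36 imprinted genes that are not members were described in the same way, 29 with a row and 16 at 1 RPKM or more. Igf2r, the receptor that clears IGF2 and the best known target of Airn, was the only one counted in any comparison, as 1 of 16 lower between reactivated and dormant embryos, where 7.66% of all genes were lower. It fell to 15.65 RPKM in reactivated embryos, against 36.15 RPKM in dormant embryos, with 30.56 RPKM in reactivating embryos. The reactivated level was 0.433 times the dormant level (interval 0.413 to 0.454). Jade1, Nap1l4, Osbpl5 and Commd1 had the most RPKM among the rest, such as 43.4, 41.7 and 38.2 RPKM for Jade1 in time order.

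Of 24 genes that set or protect imprints 23 had a row and 20 reached 1 RPKM. Uhrf1, the partner that brings the methyltransferase DNMT1 to newly copied DNA, alone passed the size rule, in the comparison of reactivated with dormant embryos. Its level was 8.31, 12.8 and 20.8 RPKM in time order, the reactivated level being 2.50 times the dormant level (interval 2.24 to 2.79). The highest of the others was Trim28, the corepressor that ZFP57 recruits, with 112, 151 and 154 RPKM. Dnmt3l, a cofactor of imprint setting in germ cells, had 78.4, 69.0 and 81.03 RPKM. Eed and Suz12, subunits of the complex that writes H3K27me3, had 37.5, 39.9 and 41.9 RPKM and 23.75, 26.3 and 33.5 RPKM. Zfp57, added after its values were seen because it binds the methylated motif above, had 29.1, 25.8 and 19.99 RPKM. The median log2 difference of the list between reactivated and dormant embryos was 0.19, against -0.07 for all genes. In the list 1 of 19 genes was higher and 0 were lower, beside 5.27% higher and 7.66% lower over all genes.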

How the data were processed

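RNA was measured in 3 libraries, 1 per state. The authors deposited a table per library with read counts per gene, split per the file headers into exon, intron, junction and opposite-strand reads, beside the authors' own RPKM for each gene. The build is GRCm38 per the submitters' processing notes. Aligner and counting tool are not given in the sources used. For all 141 genes read, RPKM followed from exon reads, exon length and library totals (14118723 dormant, 15687239 reactivating, 18982195 reactivated), within 2% or 0.011 RPKM. The totals were themselves derived from the authors' RPKM, as a median over genes with at least 200 exon reads. The match is thus partly built in, and shows that 1 total per library serves these genes. The same totals scale intron and opposite reads.

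Members and lists were chosen with earlier results of these data known. Differences are log2((RPKM + 1)/(RPKM + 1)), later state over earlier, computed for every gene. Without replicates no test was run and no p-value is given. Each count has an exact 95% Poisson interval, each ratio an exact binomial interval and each share a Wilson interval, and 3 reads set the limit for a count of 0. Every member is accounted for. Members at 1 RPKM or more have their values given, and genes of the further lists are named when past the size rule or among the highest. Igf2, Zfp57 and the small RNA rows were added after their values were seen. Intron ratios used 20 or more reads in a library. Coordinates and exon unions came from GENCODE M21, windows and miRNAs from RefSeq. Members without a sequence there are Impact and H19 among others, and no protein sequence was used. Python 3.11.15, pandas 2.3.3, numpy 2.4.6, scipy 1.17.1 and matplotlib 3.10.9 were used. Alternatives were another pseudocount, CPM, level minima, scalings, a smaller size and separate intervals.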

Additional observations from a re-analysis of the deposited data

How the results depend on the processing

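The counts of members called kept to within 1.5 times in most settings. Between reactivated and dormant embryos, median ratio scaling left 1 lower member, Peg3, with 6.84% of all genes lower. A size of 1.5 times gave 1 higher member there, Phlda2, where 14.2% of all genes were higher. It also added Meg3 to Peg3 and Impact, giving 3 lower members with 20.3% of all genes lower. Between reactivated and reactivating embryos a pseudocount of 0.1 gave 1 higher member, Mest, with 6.27% of all genes higher, and a size of 1.5 times gave 3, Mest, Sfmbt2 and Grb10, with 11.5% of all genes higher. That size also added Mkrn3 to Peg3 and Impact there, giving 3 lower members with 21.1% of all genes lower. These last changes follow from the looser rule itself, and the cause of the others was not tested. Between reactivating and dormant embryos every setting tried gave 0 in both directions. Of all genes 7.89% were higher and 6.58% lower there at a size of 1.5 times. With a pseudocount of 0.1 the shares were 5.09% and 4.93%. Of 418 alternative values of single differences and class medians 16 changed sign, among them Gnas, Cdkn1c, Cd81, Slc38a4, Copg2 and the class medians, while Peg3 and Impact did not. No paired analysis was possible because each state has 1 library, and no replicate could be left out. Depth limits the genes with a handful of exon reads, such as Asb4 with 1, 2 and 3.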
